A study of Mus musculus with 24 samples.

Results

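Skeletal muscle of NZO mice, an obese and diabetes-prone strain, was compared with that of the lean C57BL/6 strain (B6) on 7 of the 24 single-colour Agilent arrays of a study that also covered gonadal white fat (gWAT) and brown fat (BAT). The NZO group held 4 arrays, titled 009, 011, 003 and 007, with RNA of male NZO/HiBomDife mice. The B6 group held 3 arrays, titled 010, 015 and 009, with RNA of male C57BL/6 mice. Both strains had received a diet with 45% fat, and the labels give an age of 6 weeks. The titles call the tissue quad, and the labels call it skeletal muscle. Whether samples of a strain came from different mice is not stated, and p-values cover the spread between these samples alone, part of which may be technical. Array B6 011 was left out because it carried fat transcripts and Ifi202b, so fat transcripts and Ifi202b are not independent of the choice of arrays.

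Muscle takes up much of the glucose cleared from the blood after a meal, through the insulin-regulated transporter Slc2a4, and stores it as glycogen. Its slow fibres burn fuel in mitochondria, its fast fibres rely more on glycolysis, and each kind carries its own isoforms of myosin, troponin and calcium pump. NZO mice are used as a polygenic model of obesity and type 2 diabetes, in which muscle responds poorly to insulin.

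Levels are given as log2 signal relative to each array's 75th percentile, and differences are NZO minus B6 on the log2 scale. That percentile ranged from 142.8 to 204.6 intensity units over the 7 arrays and was 234.8 on B6 011, and 52.0% to 58.4% of probes were well above background. Arrays of the same strain correlated across probes at 0.963 to 0.989, against 0.942 to 0.975 between strains. NZO 009, 011, 003 and 007 lay on slides 6, 3, 3 and 4, and B6 010, 015 and 009 on slides 5, 2 and 4. Only slide 4 held both strains, so slide and strain can hardly be told apart in muscle alone. The main fit had no slide term, and the fit with slide as a fixed block took in 23 arrays, fat included. The labelled tissue was borne out by 8 fibre markers such as Acta1 and Ckm, whose summed linear level was 7150 to 7840 in NZO and 7860 to 8890 in B6, against at most 16.0 in gWAT. Summed white adipocyte markers were at 218 to 367 in NZO and 281 to 321 in B6, but at 1430 on B6 011. Brown adipocyte markers summed to 4.71 to 23 in NZO and to 69.7, 25.3 and 6.06 on B6 010, 015 and 009. On B6 011 that sum was 59.6, below B6 010, so brown fat transcripts were also present on an array that was kept. In bulk tissue, fewer cells of a type and less RNA per cell cannot be told apart.

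The strain labels were checked with probes chosen on the fat arrays alone. Of 33 probes well above background on every NZO fat array and no B6 fat array, the NZO muscle arrays showed 25 to 29 and the B6 arrays 010, 015 and 009 showed 2, 3 and 6. Of 64 probes seen on every B6 fat array and no NZO fat array, NZO muscle showed 6 to 11 and the same B6 arrays 49, 47 and 54. Array B6 011 showed 23 of the NZO probes and 46 of the B6 probes, so it carried signal of both strains. Ifi202b, used in the choice of arrays, fits the definition of the NZO probes, so the check is not fully independent of that choice.

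**Figure D1:**
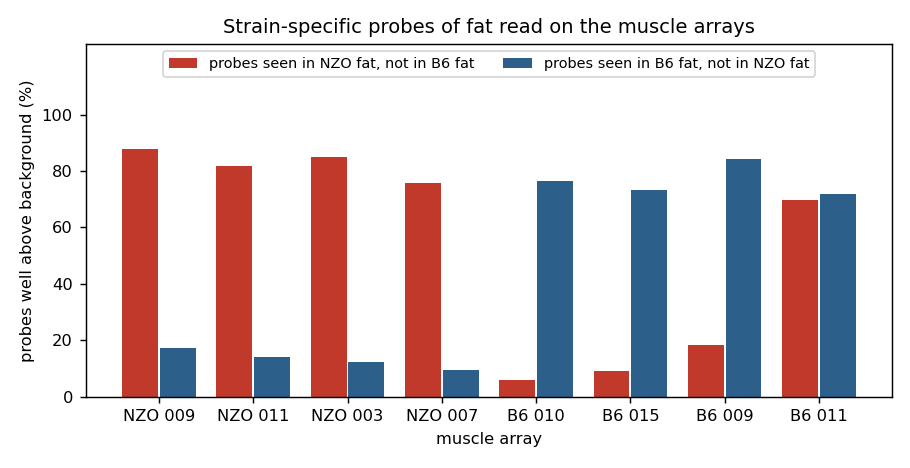
Share of strain-specific fat probes (%) that were well above background on each muscle array, with 33 probes of NZO fat in red and 64 of B6 fat in blue. The 4 NZO arrays and B6 010, 015 and 009 each show mainly the probes of their own strain, and B6 011 shows both.

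Limma called 2235 of 20919 genes (10.7%) at an adjusted p under 0.05. Of these, 978 were higher in NZO (4.68%) and 1257 lower (6.01%), and 465 of the higher and 472 of the lower ones differed at least 2-fold. The strains did not overlap for any of the 2235 called genes, so lack of overlap adds nothing to a call. The median difference over all genes was -0.03, with a median standard error (SE) of 0.16. With B6 011 included, 1087 of 20870 genes were called (5.21%). Leaving out B6 010 or B6 009 gave 998 or 1023 calls, and leaving out NZO 007 gave 1420. Among the genes named below that were called, 61 kept their call without B6 010, 57 without B6 009, 77 without B6 015 and 75 to 86 without an NZO array.

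The strain difference varied with signal level. Its median was 0.09 among the 5202 dimmest genes (levels below -2) and -0.21 among the 280 brightest (levels above 8), of which 89.3% were below 0. After quantile normalization the same medians were 0.07 and 0.00, and 1029 genes were higher (4.92%) and 1059 lower (5.06%). Many contractile and metabolic genes of muscle lie in the bright range, so values after quantile normalization are given beside some of them.

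**Figure D2:**
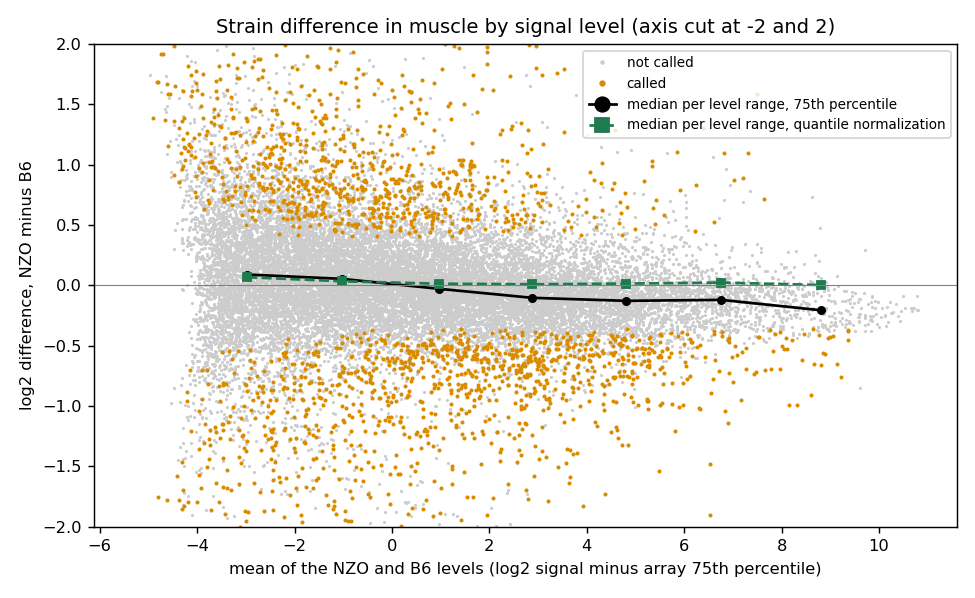
Strain difference of each gene (log2, NZO minus B6) against its mean level (log2 signal minus the array 75th percentile), with called genes in orange and the median per level range under both scalings. The axis leaves out 380 genes that differed by more than 2. The black medians slope from 0.09 to -0.21, and the green medians after quantile normalization stay close to 0.

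Among genes measured on all 7 arrays, the 12 with the highest differences were led by Syt10, a synaptotagmin of calcium-triggered vesicle release. Its probe lies on chromosome 15 (mm9 chr15:89612967-89613026). Syt10 was at 3.87, 3.76, 3.01 and 3.28 on the NZO arrays, against -2.81, -3.33 and -2.87 on the B6 arrays. The strains lay far apart, with a difference of 6.48 (SE 0.24, adjusted p = 2.67e-05). Ccl19, a chemokine that guides T cells and dendritic cells, was at 3.99, 4.06, 3.62 and 3.82 in NZO and at -1.24, -1.72 and -1.55 in B6 (5.37, SE 0.16). Its other probes were also higher in NZO, by 2.37 to 5.07.

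Opn1mw, the medium-wave cone opsin, followed with 4.79 (SE 0.25). Next came the small GTPase Rem1 (3.86), the interferon-induced family member Ifit1bl2 (3.55), Vipr2, a receptor for vasoactive intestinal peptide (3.54), and Mthfd2, a mitochondrial enzyme of folate metabolism (3.03). The chemokine receptor Cxcr3 (3.03), Gchfr, a regulator of biopterin synthesis (2.84), the neural adhesion molecule Cntn1 (2.76), Dera, an aldolase of deoxyribose phosphate (2.70), and the ribonuclease Rnase2a (2.70) completed the 12. Over the alternative settings the sizes went as low as 4.46 for Syt10, 3.05 for Opn1mw, 2.88 for Ifit1bl2 and 2.37 for Rem1. They went down to 1.56 for Cxcr3, 1.49 for Cntn1 and 1.30 for Dera, so the ranked sizes depend on the processing. With B6 011 included, Gchfr (adjusted p = 0.562), Dera (0.149) and Rnase2a (0.582) were no longer called, and B6 011 was at 2.26 for Gchfr and 3.42 for Rnase2a, above every NZO muscle array.

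Among the 12 genes with the lowest differences, Pttg1, which encodes securin, was first (mm9 chr11:43233801-43233860). It was at 0.91, 0.60, 0.68 and 0.86 in NZO, against 5.92, 5.73 and 5.94 in B6. The groups lay far apart (-5.10, SE 0.12, adjusted p = 4.3e-06), and a second Pttg1 probe was detected above background on 0 of 4 NZO arrays and 3 of 3 B6 arrays. Rab6b, a Rab GTPase of Golgi transport, was at -2.74, -3.09, -2.39 and -2.50 in NZO and at 1.94, 1.64 and 1.73 in B6 (-4.45, SE 0.19). Cd28, the T cell co-stimulatory receptor, was at -2.995, -2.93, -2.98 and -2.87 in NZO and at 1.25, 0.18 and 0.95 in B6 (-3.74, SE 0.24). The B6 arrays spread more widely than the NZO arrays for Cd28. Summed T cell markers were at 3.41 to 5.31 in NZO and 3.94 to 4.92 in B6.

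Igfn1, an immunoglobulin and fibronectin domain protein of the muscle Z disc, was at -2.62, -2.89, -2.90 and -3.17 in NZO, against 0.68, -0.38 and 0.59 in B6 (-3.19, SE 0.27). On B6 011 it stood at -2.43, nearer to the NZO than to the other B6 arrays, and with that array the adjusted p was 0.0596. The others were the thymosin Tmsb15b1 (-3.36), the RNA-binding Samd4 (-3.32), the zinc finger gene Zfp780b (-3.14), Tagap, a GTPase-activating protein of T cells (-2.79), the carbohydrate kinase Fggy (-2.75), Leo1 of the Paf1 transcription complex (-2.64) and Morn2 (-2.58). Over the alternative settings the smallest sizes were -1.72 for Tmsb15b1, -1.68 for Zfp780b and -1.83 for Igfn1, against -4.79 for Pttg1. For Chrna9, an acetylcholine receptor subunit, the probe chosen by its level gave -4.52 (SE 0.22), while another probe gave 2.07, so its direction is not settled.

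**Figure D3:**
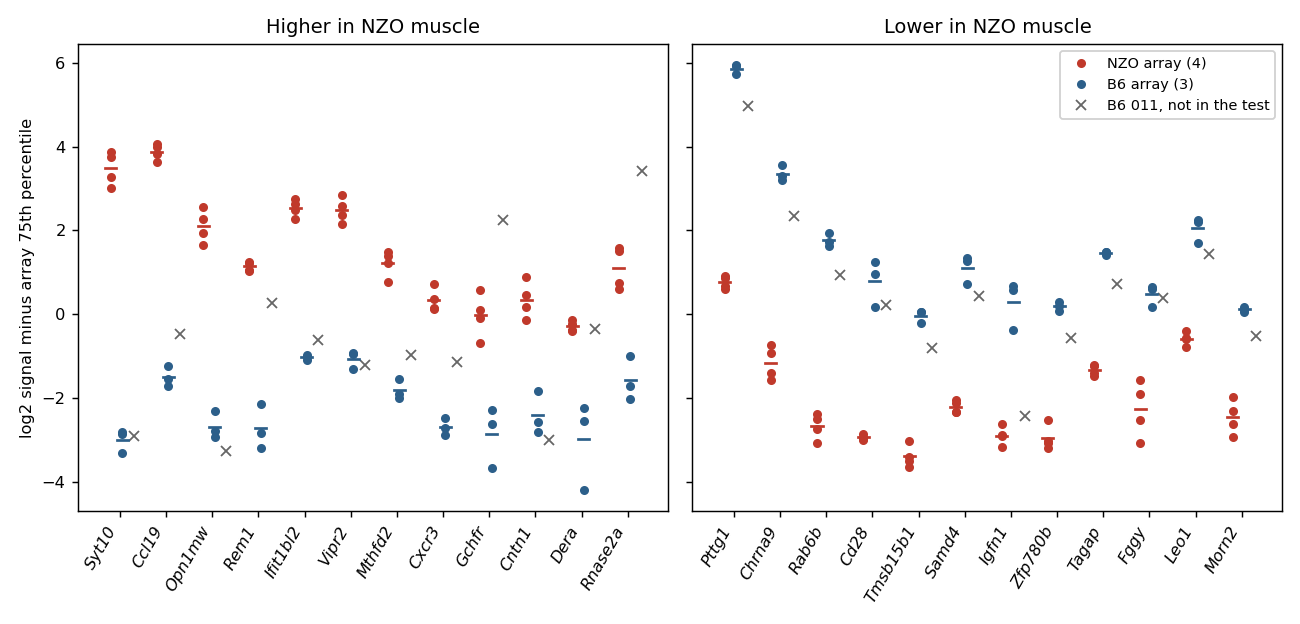
Level on each array (log2 signal minus the array 75th percentile) of the 12 genes most raised and the 12 most lowered in NZO muscle, with NZO arrays in red, B6 arrays in blue, group means as bars and B6 011 as crosses. The genes were chosen among those whose 4 NZO and 3 B6 values do not overlap. B6 011 lies above all NZO arrays for Gchfr and Rnase2a.

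Other genes were well above background in 1 strain only, so that just a bound can be given: the brighter mean over a floor, which per array is the dim probe's signal or, if higher, the lowest signal well above background. Ifi202b, an interferon-inducible p200 gene on chromosome 1, was at 2.02, 1.95, 2.74 and 2.84 in NZO, and at -6.51, -6.28 and -6.69 in B6. It was at least 107-fold higher in NZO, which is a description only, since Ifi202b was used in the choice of arrays. It stood at 2.07 on the array that was left out, and with that array it was not called (adjusted p = 0.0803). Methig1 was at least 31.9-fold, the histone gene Hist2h2bb at least 24.7-fold, the lymphocyte inhibitory receptor Btla at least 12.3-fold and Calm4 at least 11-fold higher. In the other direction, Pole4, a subunit of DNA polymerase epsilon, was at least 25.4-fold lower in NZO. The bounds were 22.2-fold for Apol10b, 16.0-fold for the Bardet-Biedl gene Ttc8, 13.6-fold for Fgfbp1, 11.7-fold for Zfp982 and 9.03-fold for the melanocortin receptor Mc3r, all lower in NZO. Whether the NZO sequence differs under these probes, or under those of the other genes named in this report, was not tested.

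Counts of called genes in the lists below stand beside 10.7% of all genes called, 4.68% higher and 6.01% lower. Of 13 fast fibre genes, 1 rose and 0 fell (7.69%, beside 10.7% of all genes), with a median of -0.21, or -0.03 after quantile normalization. At unadjusted p under 0.05, 1 was above and 5 were below. The riser was Casq1, the calcium buffer of the fast-fibre store, at 7.92, 8.08, 8.03 and 7.93 in NZO and 7.10, 7.39 and 7.33 in B6 (0.72, SE 0.11, adjusted p = 0.00809). The call ended with slide as a fixed block (adjusted p = 0.187). The fast myosins Myh4 (-0.335, adjusted p = 0.0884), Myh1 (0.08, 0.816) and Myh2 (-0.29, 0.714) did not pass, nor did Acta1 (-0.08, 0.691) or Ckm (-0.34, 0.0514). After quantile normalization Myh4 was at -0.092 and Ckm at -0.108. None of 11 slow fibre genes was called by limma (0 of 11, median 0.42), and at unadjusted p under 0.05 there were 1 above and 0 below. Without B6 015 the median of the slow genes was -0.30. The slow myosin Myh7 was at 6.15, 5.03, 4.52 and 5.36 in NZO and at 5.61, 3.12 and 5.91 in B6. Here the B6 arrays alone spanned more than the gap between the strains (0.38, SE 0.71).

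Of 25 sarcomere scaffold genes, 3 rose and 2 fell (20%, beside 10.7% of all genes, median -0.30). Klhl41, a Kelch protein that stabilises the thin filament, was at 5.22, 5.31, 5.08 and 5.28 in NZO, against 3.93, 3.84 and 4.03 in B6. The groups were clearly apart (1.29, SE 0.11, adjusted p = 0.000523), and the call held with every array left out in turn, after quantile normalization (1.44) and with B6 011 (1.503), but ended with slide as a fixed block (1.58, adjusted p = 0.0611). The stretch-responsive Ankrd1 (2.25, SE 0.47) and the membrane repair gene Dysf (0.51) also rose, and Myoz1 (-0.44) and Myom1 (-0.58) fell. Neither fall passed after quantile normalization (adjusted p = 0.214 and 0.0942).

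In calcium handling 0 of 17 genes rose and 2 fell (11.8%, beside 10.7% of all genes): Cacna1s, the voltage sensor of the T tubule (-0.57), and the kinase gene Camk2a (-0.75). Both lost their call with B6 011 (adjusted p = 0.333 and 0.370). Cacna1s also did not pass after quantile normalization (-0.33, adjusted p = 0.0804). At the neuromuscular junction 2 of 12 rose, the synapse organiser Agrn (0.68, SE 0.13) and its receptor Lrp4 (0.49, SE 0.10). Among 13 embryonic and neonatal genes 1 rose, the growth factor Igf2 (0.80, SE 0.15), and the fusion gene Mymk (0.88, adjusted p = 0.0517) and embryonic myosin Myh3 (1.23, 0.0546) did not pass. Of 17 myogenic regulators 1 rose, the inhibitor Id2 (0.76, adjusted p = 0.0466), which lost its call after quantile normalization (0.0697).

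Several genes of sugar metabolism were lower in NZO. Of 20 glycolytic genes 0 rose and 4 fell, and of 15 glycogen genes 0 rose and 5 fell, beside 6.01% of all genes called lower. The muscle pyruvate kinase Pkm was at 7.53, 7.63, 7.75 and 7.70 in NZO, against 8.63, 8.56 and 8.75 in B6. The difference was -0.99 (SE 0.10, adjusted p = 0.00151), and the call held after quantile normalization (-0.83), with B6 011 (adjusted p = 0.0298) and with each array left out. Hexokinase Hk2, which traps glucose in the fibre, was at 3.35, 2.97, 2.76 and 3.15 in NZO and at 3.90, 3.85 and 4.12 in B6 (-0.90, SE 0.16). Pgk1 (-0.62) and the phosphofructokinase Pfkm (-0.45) fell too, although another Pgk1 probe gave -0.07 and Pgk1 was at -0.072 with normexp (adjusted p = 0.834). The called Pgk1 probe is placed on chromosome 3 (mm9 chr3:57906830-57906894), and whether it reads the Pgk1 gene itself was not tested. The fall of Pgk1 therefore rests on 1 probe. Pfkm did not pass after quantile normalization (-0.238, adjusted p = 0.23). The calls of Hk2, Pgk1 and Pfkm ended without B6 010 or B6 009, that of Pgk1 also without B6 015, and that of Pfkm without any array but NZO 003.

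Among glycogen genes, Pgm1, which links glucose phosphates to glycogen, was at 8.81, 8.69, 8.93 and 8.83 in NZO, against 9.41, 9.49 and 9.50 in B6 (-0.65, SE 0.10, adjusted p = 0.00742). Glycogen synthase Gys1 (-0.47) and the phosphorylase kinase subunits Phka1 (-0.58) and Phkg1 (-0.39) fell as well, and another Gys1 probe gave -0.08. Among these glycogen genes only Pgm1 passed after quantile normalization (adjusted p = 0.0379), with 0.0604 for Gys1 and 0.159 for Phka1. The medians were -0.21 for glycolysis and -0.39 for glycogen. After quantile normalization the medians were -0.009 and -0.258, and 3 glycolytic genes and 1 glycogen gene were lower, and with B6 011 the counts were 1 and 0.

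At the entry of pyruvate into mitochondria 1 of 11 genes rose and 1 fell. Pdk1, a kinase that blocks pyruvate dehydrogenase, was at -1.30, -1.44, -1.77 and -1.74 in NZO and at 0.15, -0.03 and 0.03 in B6. The strains were clearly separated (-1.61, SE 0.15, adjusted p = 0.000781). The phosphatase gene Pdp1, which reverses that block, rose (0.61, adjusted p = 0.0488), a call that ended with each array left out. Pdk4, the isoform induced by fasting, was at 7.45, 6.21, 6.02 and 7.10 in NZO and 6.89, 6.76 and 6.40 in B6, with the B6 values inside the NZO range.

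Limma called 0 of 31 respiratory chain genes (median -0.02) and 0 of 15 citric acid cycle genes (median -0.08). The share called over all genes was 10.7%. At unadjusted p under 0.05, 0 were above and 2 below in the chain, and 1 above and 0 below in the cycle. Of 26 genes of fatty acid uptake and oxidation 1 rose, the lipoprotein lipase Lpl (0.83, SE 0.13), with -0.24 from another probe. Lpl is also a fat transcript and so not independent of the choice of arrays. On B6 011, the array with fat transcripts, Lpl stood at 8.60, above the 6.81 of the highest NZO array. Of 17 PPAR and PGC-1 genes 3 fell (17.6%, beside 10.7% of all genes): Ppargc1b (-0.95, SE 0.14), Ppard (-0.54) and Ppara (-0.71). Their call ended with B6 011 (adjusted p = 0.165, 0.264 and 0.126). Other Ppara probes gave -0.364 and 0.088, and neither passed. The coactivator Ppargc1a was at 2.02, 1.81, 2.13 and 2.02 in NZO and at 2.10, 1.82 and 2.10 in B6, so the groups overlapped (-0.01, SE 0.12).

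Among 32 insulin signalling and glucose transport genes, 2 rose and 4 fell (18.8%, beside 10.7% of all genes, median -0.28). The S6 kinase gene Rps6kb1 was at 3.28, 2.95, 2.78 and 2.88 in NZO, against 4.09, 4.12 and 4.10 in B6, clearly apart (-1.13, SE 0.14, adjusted p = 0.00287). Other Rps6kb1 probes gave -0.61 and -0.285, of which the second did not pass (adjusted p = 0.165 over all probes). Prkab2, a regulatory subunit of the energy sensor AMPK, fell by 0.96 (SE 0.13). Irs2, an adaptor below the insulin receptor, was at 1.83, 1.62, 1.79 and 1.86 in NZO and at 2.76, 2.36 and 2.74 in B6 (-0.85, SE 0.14, adjusted p = 0.00961). The kinase Akt2, which drives glucose uptake, fell by 0.67 (SE 0.12). The calls of Irs2 and Akt2 ended without B6 010 or B6 009, while all 4 falls passed with B6 011 and after quantile normalization. The risers were Igfbp5, fitted on 3 NZO arrays because an outlier spot was dropped (0.79), and Trib3, an inhibitor of Akt (1.09, adjusted p = 0.0433), which did not pass with B6 011 (0.68, adjusted p = 0.473). Insr (-0.39, adjusted p = 0.119), Irs1 (-0.58, 0.0617) and Slc2a4 (-0.30, 0.158) did not pass. Another Irs1 probe gave -0.848 and did pass (limma adjusted p = 0.0224 over all probes), so the result for Irs1 depends on the probe.

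Of 20 genes of branched-chain amino acid breakdown and its neighbours, 0 rose and 4 fell (20%, beside 10.7% of all genes, median -0.36). Pccb, a subunit of propionyl-CoA carboxylase, was at -0.35, -0.14, -0.19 and -0.34 in NZO, against 1.81, 1.78 and 1.85 in B6. The spread within each strain was small beside the gap (-2.07, SE 0.10, adjusted p = 5.87e-05). Its partner subunit Pcca (-0.55), the carboxylase subunit Mccc1 (-0.64) and glutamine synthetase Glul (-0.85) fell less. All 4 passed after quantile normalization, and Pcca did not pass with B6 011 (adjusted p = 0.0658).

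In the atrophy and autophagy list 0 of 20 rose and 5 fell (25%, beside 10.7% of all genes). The mitophagy receptor Bnip3 was at 5.68, 5.52, 5.54 and 5.54 in NZO and 6.47, 6.28 and 6.40 in B6 (-0.81, SE 0.10), but did not pass with slide as a fixed block (adjusted p = 0.0539). A second Bnip3 probe gave 0.20. The remaining probe was at 6.195, 6.13, 6.19 and -6.115 in NZO and 7.01, 6.87 and 6.87 in B6, so that NZO 007 alone set its fitted difference. Map1lc3a, a protein of the autophagosome membrane (-0.75), and the glucocorticoid-induced factor Klf15 (-1.21) fell too, and Ulk1 (-0.43) fell but not after quantile normalization (adjusted p = 0.176). Of 11 phosphagen and purine nucleotide genes 1 rose and 2 fell. The fallers were Adssl1 (-0.66) and Ampd1 (-0.695, on 3 NZO arrays after an outlier spot was dropped), both of the purine nucleotide cycle, and neither passed after quantile normalization (0.0731 and 0.116). The riser, the brain-type creatine kinase Ckb (0.835), gave -0.03 with another probe.

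Of 25 antioxidant and glutathione genes 1 rose and 4 fell (20%, beside 10.7% of all genes). The riser was Nnt, the mitochondrial transhydrogenase that supplies reducing power, in which the C57BL/6J substrain is known to carry a deletion. The labels do not give the B6 substrain. Nnt was at 4.16, 3.94, 3.68 and 4.04 in NZO, against 2.499, 1.92 and 2.21 in B6 (1.74, SE 0.18, adjusted p = 0.00127). A second Nnt probe was detected above background on 4 of 4 NZO arrays and 0 of 3 B6 arrays. Gstm1, a glutathione transferase with close relatives that may share its signal, was at 2.57, 3.02, 3.31 and 3.10 in NZO and at 4.98, 4.59 and 4.91 in B6 (-1.83, SE 0.20). Prdx3 (-0.58) and Gclc (-0.64) also fell, and both lost their call with B6 011 (adjusted p = 0.163 and 0.0720).

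Immune genes moved in both directions. Of 15 genes of antigen presentation 0 rose and 2 fell, both chains of an MHC class II molecule. H2-Ab1 was at 2.15, 2.15, 2.78 and 2.65 in NZO, against 5.08, 4.82 and 4.46 in B6 (-2.35, SE 0.22, adjusted p = 0.00103), and H2-Aa was lower by 1.89 in NZO. Another H2-Ab1 probe gave -2.29. Whether the NZO sequence differs under the probes of these class II genes was not tested. The class II genes H2-Eb1 (-0.75, adjusted p = 0.109) and Cd74 (-0.88, 0.0722) did not pass. Summed macrophage markers were at 41.0 to 71.2 in NZO and 41.3 to 43.6 in B6, and the part of such cells in these values was not tested.

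Of 20 interferon-induced genes 2 rose and 1 fell (15%, beside 10.7% of all genes). The antiviral Mx1 was at -1.24, -0.26, -0.31 and -0.61 in NZO and at -1.75, -3.19 and -2.32 in B6 (1.81, SE 0.38), and Ddx58 rose by 0.44 while Gbp3 fell by 0.60. Another, dimmer Ddx58 probe had a mean of -3.711 in both strains, so it showed no rise. With B6 011, Mx1 did not pass (adjusted p = 0.497). Within the p200 family, 5 genes were tested. Beside Ifi202b, Mndal was at -5.22, -2.34, -4.03 and -4.33 in NZO, against 0.23, 0.10 and 0.18 in B6 and was well above background on only 2 of 4 NZO arrays. Its fitted difference was -4.15, but -1.93 with normexp and -2.58 with series values. Ifi211 fell by 1.35. Of 10 inflammatory mediators 1 rose, the cytokine Tnf, which was well above background on 4 NZO arrays but on only 1 of 3 B6 arrays. Its fitted difference was 1.61, but 0.108 with normexp and 0.283 with series values, and it passed neither there nor with B6 011 (adjusted p = 0.509, 0.0804 and 0.204).

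Of 22 extracellular matrix genes, 1 rose and 0 fell, with 21 above 0 and a median of 0.53. The riser was the basement membrane collagen Col4a1, at 4.79, 4.66, 4.99 and 5.23 in NZO and at 4.002, 4.34 and 4.01 in B6 (0.80, SE 0.17, adjusted p = 0.0268). The chains Col4a2 (0.62, adjusted p = 0.0614) and Col3a1 (0.71, 0.0899) did not pass. With B6 011 the list had 0 calls and a median of 0.40, and fibroblast markers summed to 397 to 559 in NZO and 345 to 452 in B6.

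Of 14 cell cycle genes, 3 rose and 0 fell (21.4%, beside 10.7% of all genes, median 0.93). These were the replication genes Mcm3 (1.32, SE 0.15) and Rrm2 (1.27, SE 0.19) and the cyclin Ccna2 (0.99, SE 0.23). Rrm2 was at 0.61, 0.05, 0.16 and 0.66 in NZO, against -1.03, -0.68 and -0.997 in B6. None passed with B6 011 (adjusted p = 0.221 for Rrm2), on which Rrm2 stood at 0.54. The value of Mcm3 depended on the probe. A pair of its probes on the minus strand of chromosome 1 shares 43 bases of genome and differs at 1 of them. They are shown over mm9 chr1:20793149-20793178, with the differing base in capitals, because they ran in opposite directions.
Mcm3 probe, higher in NZO: aagctttctttgcGattagactagtatgta
Mcm3 probe, not called: aagctttctttgcAattagactagtatgta
Counted from 1 at the left end of these stretches, the difference is G14A from the upper to the lower probe. The upper probe was at 0.53, 0.06, 0.42 and 0.62 in NZO and -1.04, -0.82 and -0.88 in B6, a difference of 1.32 (limma adjusted p = 0.00241 over all probes). The lower probe was at -0.70, -0.94, -0.34 and -0.43 in NZO and -0.16, -0.01 and -0.04 in B6, a difference of -0.53 (limma adjusted p = 0.0843 over all probes). The direction of Mcm3 is therefore not settled, and whether the base accounts for the difference was not tested.

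Mast cell markers were the list of other cell types with the highest share of calls. Of 5 markers 3 rose and 0 fell, beside 4.68% of all genes called higher, and their summed level was 6.76 to 10.8 in NZO and 3.54 to 5.54 in B6. The tryptase Tpsb2 was at 0.26, 0.55, 0.83 and 0.55 in NZO, against -0.35, -0.74 and -0.50 in B6 (1.08, SE 0.16). The carboxypeptidase Cpa3 (1.25, SE 0.23) and the receptor Kit (0.97, SE 0.19) also rose, and B6 011 was at 3.18 for the sum, below the other B6 arrays. In other marker lists single genes passed: 1 of 4 satellite cell, 1 of 7 mural, 1 of 8 endothelial and 1 of 11 macrophage markers, beside 10.7% of all genes. The genes were Calcr (-0.95), Pdgfrb (-0.58), Emcn (0.63) and Trem2 (1.17). The B cell (1 of 4) and white adipocyte (1 of 10) lists also had 1 riser each. The neutrophil (1 of 4) and Schwann cell (1 of 8) lists had 1 faller each. B cell markers summed to 1.5 to 1.78 in NZO and 0.859 to 0.95 in B6, and satellite cell markers to 7.69 to 8.8 and 9.59 to 9.92. Liver transcripts varied widely within both strains, with sums of 2.22 to 78.6 in NZO and 0.503 to 17.3 in B6.

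Smaller lists gave single genes. Among 12 myokines, Dkk3, a secreted Wnt inhibitor, was at 2.86, 3.28, 2.31 and 3.01 in NZO, against 0.89, 1.22 and 0.97 in B6 (1.84, SE 0.23, adjusted p = 0.00361), and Ostn, which encodes musclin, fell by 1.15. Among 18 stress genes, asparagine synthetase Asns rose by 1.04 but not with B6 011 (0.516, adjusted p = 0.652), and the heat shock gene Hspa1a fell by 1.285. Of 15 clock genes 1 fell, Hlf (-0.54), and limma called 0 of 14 complement genes (2 above and 0 below at unadjusted p under 0.05). Lep, the fat hormone leptin, was at -2.14, -1.17, -0.36 and -2.03 in NZO and at -3.68, -3.14 and -3.17 in B6. As a fat transcript it was not independent of the choice of arrays, and it stood at 3.64 on B6 011.

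The calls that ended with an array left out all ended without B6 009. Those of Map1lc3a and Glul ended without that array alone, and those of Hk2, Irs2, Akt2, Ifi211, Adssl1 and Hspa1a also without B6 010. Pgk1 and Ostn lost theirs without any B6 array. The calls of the others ended without 1 or more NZO arrays too. Without NZO 007 these were Pcca, Cacna1s, Gbp3, Agrn, Lrp4, Ppard, Col4a1, Ckb, Mccc1, Ulk1, Id2, Myoz1, Dysf, Ankrd1, Phka1, Pfkm, Trib3, Prdx3, Gclc, Gys1, Ddx58 and Mx1, and without NZO 003 Igf2, Klf15, Ccna2, Ampd1 and Igfbp5 were among them. Camk2a lost its call without NZO 009 or NZO 011. Ppara, Hlf, Pdp1 and Myom1 lost theirs with each array left out.

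Slide as a fixed block ended the calls of Bnip3, Cacna1s, Camk2a, Ccna2, Hlf, Igf2, Casq1, Hk2, Pfkm, Irs2, Id2, Ostn, Lrp4, Adssl1, Ampd1, Klhl41, Dysf, Myom1 and Hspa1a (adjusted p = 0.0539 to 0.752). Beside those given above, B6 011 ended the calls of Map1lc3a, Ulk1, Hlf, Lrp4, Adssl1, Ckb, Ampd1, Pdp1, Myoz1, Dysf, Myom1, Ddx58, Id2 and Hspa1a (adjusted p = 0.0534 to 0.780).

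**Figure D4:**
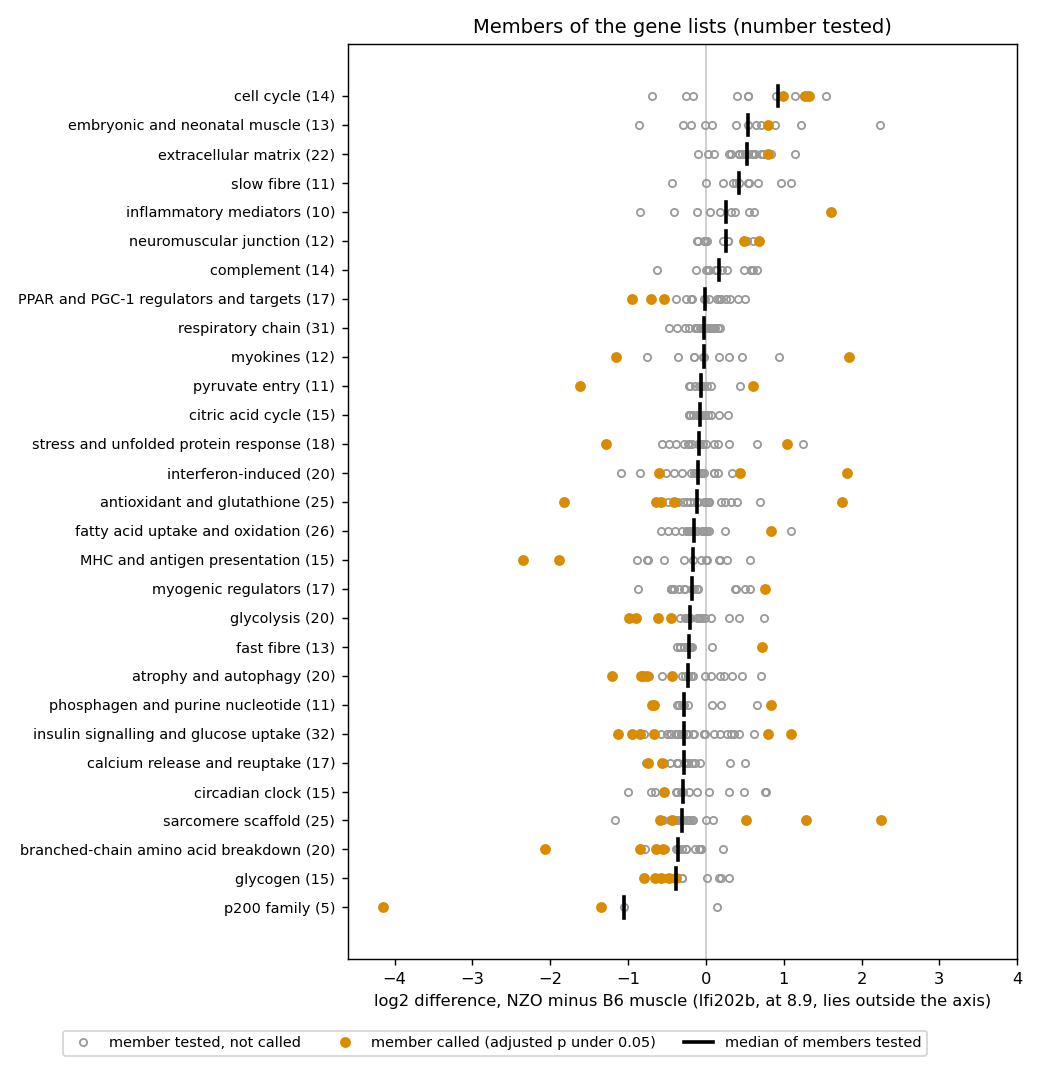
Log2 difference (NZO minus B6 muscle) of each tested member of 29 gene lists, with called members in orange, others as open circles and list medians as black bars, and the number tested in brackets. Medians run from 0.93 for cell cycle to -1.06 for the p200 family, against -0.03 over all genes, and all called members of the glycolysis, glycogen and branched-chain amino acid lists lie below 0.

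The strain effect in muscle was then set against that in fat over 23 arrays. It differed from the effect in gWAT for 4354 of 20919 genes (20.8%) and from that in BAT for 1389 (6.64%). Both comparisons share the muscle arrays. For 337 of the 2235 genes called in muscle, the effect stood apart from both fats in its own direction. These genes were chosen by their difference on the same muscle arrays, which favours that direction. Fibre markers summed to 114 to 462 on the B6 BAT arrays and 7.49 to 11.9 on the NZO BAT arrays, so brown fat of B6 carried muscle transcripts, and their part in the comparison with BAT was not tested.

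Several of the most changed genes differed between strains in all 3 tissues. Rem1 had differences of 3.86 in muscle, 3.98 in gWAT and 3.79 in BAT, and Zfp780b had -3.14, -3.78 and -3.13. Syt10 (6.48, 5.85 and 4.99) and Leo1 (-2.64, -2.04 and -2.17) were alike in direction, and for these 4 genes the test of the difference between tissues did not pass.

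Others stood apart in muscle although they were well above background on all fat arrays of both strains. Ifit1bl2 differed by 3.55 in muscle, 0.00 in gWAT and 0.15 in BAT, so that muscle exceeded gWAT by 3.55 (SE 0.15, adjusted p = 2.3e-11) and BAT by 3.40 (SE 0.15, adjusted p = 5.1e-11). Cxcr3 differed by 3.03, 0.23 and -0.25, and Cd28 by -3.74, 0.16 and -0.18. For Cd28 the muscle effect was lower than in gWAT by 3.89 (SE 0.31) and than in BAT by 3.56 (SE 0.31). Tagap, at -2.79 in muscle, had -0.65 in gWAT and -0.69 in BAT.

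Vipr2 changed direction between tissues, with 3.54 in muscle, 1.35 in gWAT and -2.31 in BAT. Its effect in muscle exceeded that in BAT by 5.84 (SE 0.29, adjusted p = 1.58e-10). Igfn1 had -3.19 in muscle, 0.86 in gWAT and -0.06 in BAT, but was well above background on 4 of 16 fat arrays. Opn1mw (4.79, -0.12 and 0.15) was so on 8 of 16. Mc3r and Calm4 were not well above background on any fat array, so their strain effect in fat was not measured.

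**Figure D5:**
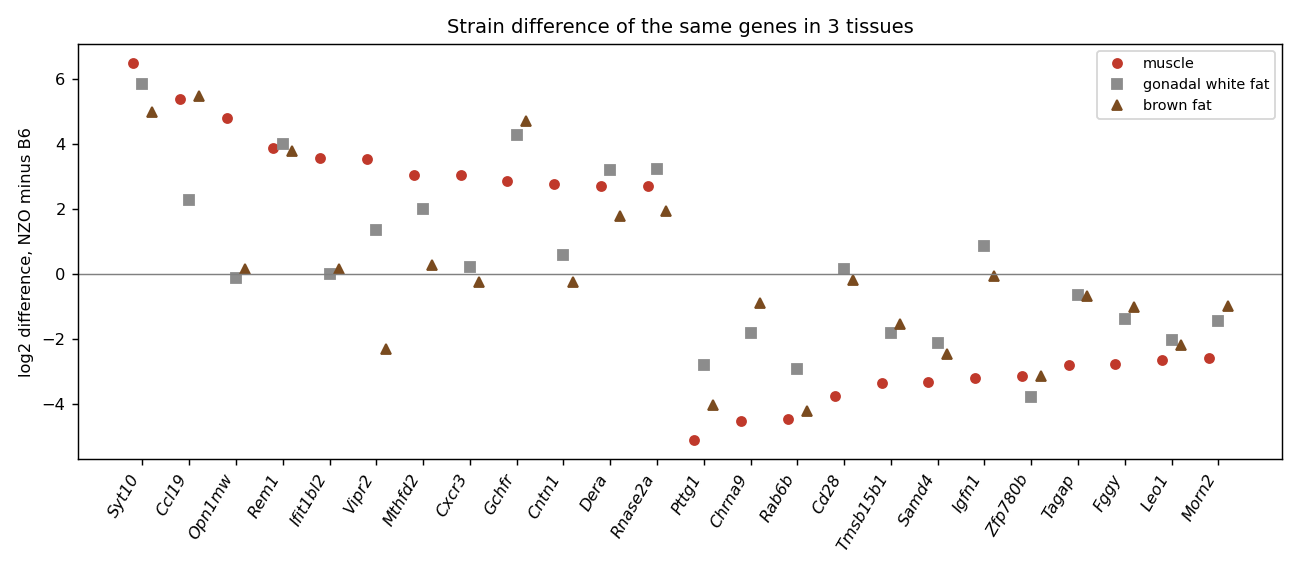
Strain difference (log2, NZO minus B6) of the 24 genes with the highest and lowest differences in muscle, in muscle, gonadal white fat and brown fat. Rem1 and Zfp780b lie together in all 3 tissues, Ifit1bl2, Cxcr3 and Cd28 are near 0 in both fats, and Vipr2 is at -2.31 in brown fat.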

How the data were processed

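Each array file held spot intensities of a single-colour Agilent array with probes of 60 bases, read with Feature Extraction 11.0.1.1 per the file headers, while the submitters' processing notes name version 9.1. The processed intensity was background-subtracted within arrays, per the file headers, and not scaled between them. The deposited series values were linear spot intensity and served as an alternative. Probe positions are on mm9, per the file headers.

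Outlier spots were dropped, spots of a probe averaged, and log2 intensity taken relative to the array 75th percentile. A probe was tested if well above background on all 4 NZO or all 3 B6 arrays, and a gene was represented by its probe of highest mean level over 24 arrays. Symbols came from RefSeq for 27656 of 55681 probes. Strain differences were fitted with limma 3.58.1 in R 4.3.3 (lmFit, eBayes, Benjamini-Hochberg over 20919 genes), and tissue differences over 23 arrays. Files were read with data.table (version 1.17.8) and figures drawn with matplotlib 3.10.9, pandas 2.3.3 and Python 3.11.15. The fit was tested on simulated data.

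The comparison, members and gene lists were chosen with earlier results of these data known. Genes named were the 12 highest and 12 lowest called differences measured on all 7 arrays, among genes whose strains did not overlap. Further named genes were the 6 highest bounds each way, up to 4 called members of a list with any in the minority direction, and 20 fixed genes. Some genes that these rules name are not reported here. Other genes of the lists, and the cell type markers, were named after their values were seen. Alternatives covered background correction, scaling, filter, series values, probe choice, slide, B6 011 and each array left out. The number of arrays limits the precision.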

Additional observations from a re-analysis of the deposited data

Results flagged for a closer look

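Of 134 genes and marker lists, all but Igfbp5 and Ampd1, which lacked a value on NZO 007, were screened. Of those screened, 6 had 1 NZO array far from the other 3, and chance alone flags about 1 in 20 groups. These were NZO 009 for Pole4 (-6.50), Fgfbp1 (-6.14) and Bnip3 (5.68), NZO 003 for Map1lc3a (4.16) and Ostn (-2.27), and NZO 011 for Pgk1 (7.92). Pole4 and Fgfbp1 were well above background on 0 of 4 NZO arrays, so their flags compare values that were not well above background.

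The strain effect differed by test between muscle and gWAT for genes of the highest and lowest differences. The value in muscle minus that in gWAT was 3.10 for Ccl19, 4.91 for Opn1mw, 3.55 for Ifit1bl2, 2.19 for Vipr2, 1.05 for Mthfd2, 2.80 for Cxcr3 and 2.18 for Cntn1. It was -2.30 for Pttg1, -2.72 for Chrna9, -1.52 for Rab6b, -3.89 for Cd28, -1.56 for Tmsb15b1, -1.20 for Samd4 and -4.05 for Igfn1. It was -2.14 for Tagap, -1.35 for Fggy and -1.12 for Morn2.

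Against BAT the same value was 4.65 for Opn1mw, 3.40 for Ifit1bl2, 5.84 for Vipr2, 2.77 for Mthfd2, 3.28 for Cxcr3, -1.87 for Gchfr and 2.99 for Cntn1. It was -1.08 for Pttg1, -3.64 for Chrna9, -3.56 for Cd28, -1.82 for Tmsb15b1, -3.13 for Igfn1, -2.10 for Tagap, -1.73 for Fggy and -1.58 for Morn2.

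For genes seen in 1 strain of muscle only, the fitted values do not measure size. Against gWAT they were -2.25 for Ifi202b, 4.35 for Methig1, 2.04 for Btla, 5.25 for Calm4, 1.76 for Ttc8, -3.68 for Fgfbp1 and -5.00 for Mc3r. Against BAT they were 1.37 for Ifi202b, 2.78 for Btla, 5.35 for Calm4, -3.52 for Fgfbp1 and -3.92 for Mc3r.

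Array B6 011, outside the comparison, showed 23 of the 33 probes of NZO fat, an Ifi202b level of 2.07 and a white adipocyte marker sum of 1430, above the other B6 muscle arrays in each case. Fat transcripts and Ifi202b were the reason for leaving it out, so these values describe that choice and are no separate observation.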

How the results depend on the processing

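The count of 2235 calls (978 higher, 1257 lower) was 1087 (526 and 561) with B6 011, 1383 (629 and 754) without a filter on dim probes, and 998 to 2000 with 1 array left out (464 to 971 higher, 534 to 1100 lower). Of the named genes called, 57 kept their call and 44 lost it with B6 011, and 87 kept it after quantile normalization, 91 with normexp and 80 with slide as a fixed block. The comparison with BAT (1389 genes) gave 901 with B6 011, 429 with slide as a fixed block and 789 to 1427 with 1 array left out. Title numbers do not establish pairing across tissues: with the replicate block (correlation 0.056) 4615 genes differed from gWAT and 1575 from BAT, against 4354 and 1389. Signs that turned under these settings were those of Ckb (-0.026) and Ucp3 (-0.117) with the probe of highest muscle mean, Adipoq (-0.089), Ucp2 (-0.123), Ppargc1a (0.211), Myh2 (0.103) and Acta1 (0.052) with B6 011, and Myoz1 (0.147), Pdk4 (-0.062), Myh4 (0.001), Acta1 (0.110) and Ckm (0.310) with slide as a fixed block. Ppargc1a was 0.041 with normexp, 0.064 after quantile normalization and 0.033 with series values, Acta1 0.089 after quantile normalization and Pdk4 -0.004 on median centring. Within the slide that held both strains Myh7 was -0.548 and Acta1 0.179. With 1 array left out, Ppargc1a ran from -0.106 to 0.049, Pdk4 from -0.244 to 0.232, Myh7 from -0.497 to 0.897 and Myh2 from -0.664 to 0.017. Of these genes only Ckb and Myoz1 had been called. Probes that no setting selected also turned the sign of the called genes Lpl, Mcm3, Chrna9, Bnip3 and Ppara. The cause was not tested, except that leaving out arrays leaves fewer samples.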
